A study of Sus scrofa with 12 samples.

Results

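UNC13A and 8 other genes of regulated exocytosis were examined for N6-methyladenosine (m6A) on their mRNAs in boar sperm: the priming genes UNC13A, UNC13B, UNC13D and RIMS1, the SNARE genes STX1A, STX2, SNAP25 and VAMP2, and NSF. They are a list of genes of regulated exocytosis, and 8 of the 9, all but STX1A, were among the 11701 genes that had at least 1 m6A peak on an mRNA exon in any of 6 samples. UNC13A was put on the list because it had more peaks than any other gene in fresh sperm, so it was selected on measured values and its peak numbers are given as a description, without a test. The other genes were listed for their place in membrane fusion, but with earlier results of these data known, which limits their tests as well. A peak was assigned to a gene when it lay on the same strand as an mRNA of that gene and overlapped an exon by at least 1 bp.

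Sperm-rich ejaculates of 3 Duroc boars, 5 per boar, were divided equally. The fresh part (Fs) was snap-frozen in liquid nitrogen at once and kept for RNA extraction. The frozen-thawed part (Fts) was cooled to 17 °C, spun at 240 g for 5 min, taken up in a lactose and egg yolk extender, held for 4 h at 4 °C, mixed with an extender containing 6% glycerol, put into 0.2 mL straws, kept for 15 min in nitrogen vapour at -130 °C and then stored in liquid nitrogen. Both groups are labelled as spermatozoa of the same breed, and both met liquid nitrogen before RNA extraction. Extenders, slow cooling, freezing in vapour with glycerol and thawing separate the groups together and cannot be told apart.

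In methylated RNA immunoprecipitation sequencing (MeRIP-seq), the RNA is sheared chemically to about 100 nucleotides (nt), and pieces bound by an antibody against m6A are sequenced (IP), beside an untreated part of the same RNA (input). A peak is a stretch where the IP reads exceed the input reads. Each peak carries a score, 10 times the -log10 of the p-value from the peak caller, so that higher scores stand for smaller p-values and 13.0 marks the usual threshold of 0.05. There were 3 samples in each group, Fs1 to Fs3 and Fts1 to Fts3, with 1 peak list each. The lists held 8015 to 10378 peaks in Fs and 9682 to 11982 in Fts, and in each list 45.1% to 55.6% of the peaks scored under 13.0. The lists hold no read counts, so the depth behind a single peak is unknown. The score depends on depth and on the amount of the mRNA as well as on methylation. The authors report more mapped IP reads in every Fs library than in every Fts library, so depth differed between the groups. Input levels were not analysed here, so fewer methylated molecules, fewer mRNA molecules per cell and fewer cells with the mRNA cannot be told apart.

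Regulated exocytosis is the calcium-triggered fusion of a stored vesicle with the plasma membrane. Proteins of the UNC13 family prime vesicles by helping syntaxin to enter the SNARE bundle, the SNARE proteins on both membranes zip together to drive fusion, and the ATPase NSF takes the used bundles apart. In sperm, the acrosome reaction, which releases the enzymes of the acrosome at the egg, is exocytosis of this kind.

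Peaks on the exons of the 9 genes numbered 98 in all. The sequences below are the stretches on which the comparison of the 3 UNC13 genes turned. They are exon 21 and exon 30 of UNC13A, which had a peak in all 6 samples, exon 17 of UNC13B, which also had a peak in all 6, the first 300 bases of a UNC13B exon with peaks in the 3 Fts samples only, and exon 27 of UNC13D, with peaks in the 3 Fs samples only. The 300 bases of UNC13B were picked after their values had been seen. Capitals mark matches to RRACH, the sequence context in which m6A is known to be deposited, in which each R is A or G, then come A and C, and H is any base but G, 12 forms in all. Matches were sought on the strand of the transcript only and could overlap. All stretches were read from the RefSeq genome Sscrofa11.1 and lie on the plus strand, at chr2:60099346-60099509, chr2:60106241-60106384, chr1:236142663-236142790, chr1:236058793-236059092 and chr12:5585586-5585691 in the order of the lines.
UNC13A exon 21: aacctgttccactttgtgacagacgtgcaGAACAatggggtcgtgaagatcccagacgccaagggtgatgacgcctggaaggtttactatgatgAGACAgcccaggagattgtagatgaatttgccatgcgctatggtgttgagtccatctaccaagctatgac
UNC13A exon 30: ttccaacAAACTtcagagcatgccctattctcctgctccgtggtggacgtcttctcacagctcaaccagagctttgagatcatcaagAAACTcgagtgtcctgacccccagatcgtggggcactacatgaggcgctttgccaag
UNC13B exon 17: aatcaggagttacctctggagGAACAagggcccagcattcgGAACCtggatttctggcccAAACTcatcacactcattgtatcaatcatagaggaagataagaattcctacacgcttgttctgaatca
UNC13B alternative exon: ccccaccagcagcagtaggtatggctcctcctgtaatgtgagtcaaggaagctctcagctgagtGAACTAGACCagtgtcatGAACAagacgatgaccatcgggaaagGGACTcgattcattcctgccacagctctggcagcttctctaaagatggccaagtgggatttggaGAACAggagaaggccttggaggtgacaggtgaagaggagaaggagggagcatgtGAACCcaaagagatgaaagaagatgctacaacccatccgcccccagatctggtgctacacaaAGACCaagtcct
UNC13D exon 27: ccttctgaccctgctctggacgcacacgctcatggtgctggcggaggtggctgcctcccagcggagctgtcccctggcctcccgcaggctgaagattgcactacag

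All 5 stretches lay within coding sequence. The 2 UNC13A exons held 2 matches each, UNC13B exon 17 held 3 and the alternative exon of UNC13B held 7, whereas UNC13D exon 27 held none. Over all 6 samples, 87.8% of the 98 peaks contained a match (86 peaks), beside 84.9% of all 53893 peaks on mRNA exons. The narrower form that starts with GGAC was found in 51.0% and 51.7%, respectively. A match here is a description of the letters in a peak, not a mapped methylated base.

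UNC13A, the priming factor best known from transmitter release at synapses, carried 56 of the 98 peaks. It had 10, 11 and 10 peaks in Fs1 to Fs3, and 6, 9 and 10 in Fts1 to Fts3. The groups met at 10 peaks. Fs averaged 10.3 ± 0.577 peaks (SD, n = 3) and Fts 8.33 ± 2.08, or -2.0 peaks for Fts minus Fs. Without the samples numbered 1 the difference was -1.0, and without those numbered 3 it was -3.0, so the low value of Fts1 weighed on the mean. In each Fs sample UNC13A ranked first of all genes. In Fts it ranked 29th, 15th and 13th, level with 25, 8 and 4 other genes, and FN1, which encodes fibronectin, held the first place with 32, 31 and 27 peaks. Summed over the Fs samples, UNC13A had 31 peaks, and the next genes were SMARCA2 with 22, COL5A3 with 20 and MYH14 with 19.

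Long mRNAs have more room for peaks, and the 9 genes were therefore also ordered by peaks per kb of exon. The length used was that of the exons of all annotated mRNAs of a gene together. For RIMS1 it was 16846 nt, beside 7386 nt for its longest coding mRNA, whereas both lengths were equal for UNC13A and for VAMP2. The place of RIMS1 in the order thus depends on the annotation, and an order by the longest coding mRNA was not computed. In Fs, UNC13A had 1.04 peaks per kb (1.0 to 1.10 over the samples), VAMP2 0.612 (0.459 to 0.917), RIMS1 0.198 (0.178 to 0.237), UNC13D 0.135 in each sample, UNC13B 0.128 (0.0768 to 0.230), STX2 0.0910 (0 to 0.273), and the others none. By this length, UNC13A lay above VAMP2, VAMP2 above RIMS1 and RIMS1 above UNC13D in every Fs sample. The range of RIMS1 overlapped those of UNC13B and STX2, and UNC13D, UNC13B and STX2 overlapped. In Fts the order was UNC13A with 0.836 (0.602 to 1.0), VAMP2 with 0.306 (0 to 0.459), UNC13B with 0.282 (0.154 to 0.461), SNAP25 with 0.133, NSF with 0.0794 and RIMS1 with 0.0791. Only UNC13A stood clear of its neighbour there. Per kb, UNC13A was not the first of all genes: 236 genes (2.02% of 11701) lay above it in Fs and 685 (5.85%) in Fts, with a median gene at 0.134 and 0.147 peaks per kb.

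**Figure D1:**
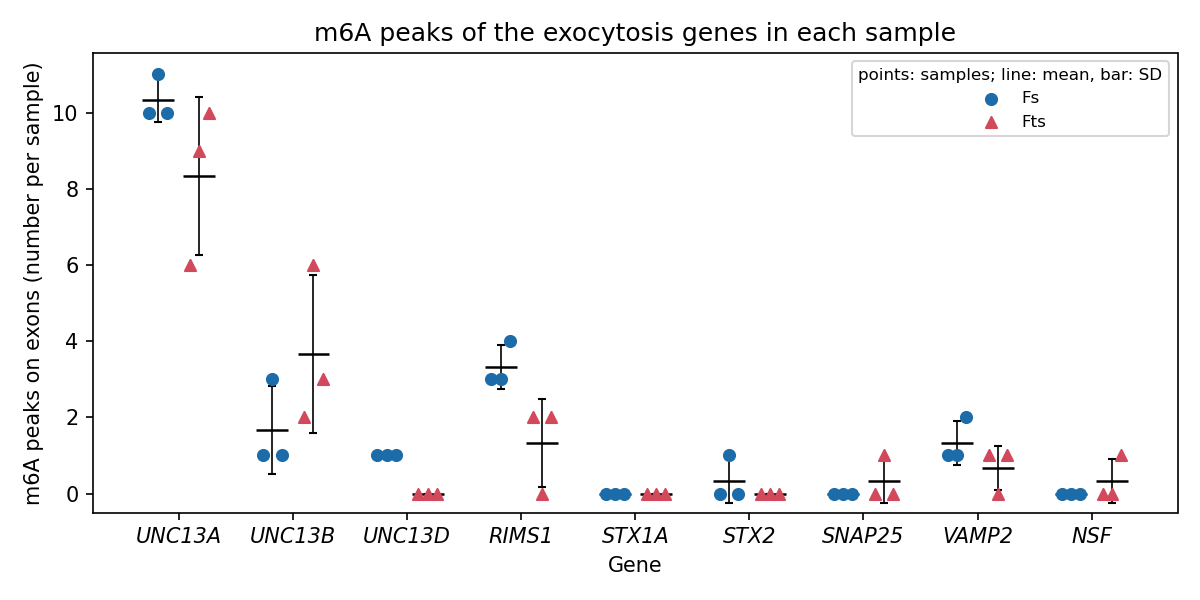
Number of m6A peaks on mRNA exons of each of the 9 genes (y axis) in each Fs (circles) and Fts (triangles) sample, with the mean (line) and SD (bar) of 3 samples. UNC13A stands between 6 and 11 peaks in all samples, and no other gene has more than 6.

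Genes with peak numbers most like those of UNC13A were sought by the sum, over the 6 samples, of the absolute differences in peak number. SMARCA2 was nearest with a sum of 16 and peaks of 5, 9, 8 in Fs and 8, 6, 8 in Fts. SPTBN4 followed with 18, COL25A1 with 20, and LOC100155289 and MYH14 with 23 each.

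The peaks of UNC13A were spread over its coding sequence. The gene lies on chromosome 2, plus strand, at chr2:60057926-60130015, and its mRNA XM_021083543.1 has 45 exons, 9968 nt, 5193 of them coding and 4623 in the 3′UTR. Peaks of the 6 samples merged into 15 regions on 15 different exons. Of the 56 peaks, 54 touched coding sequence, 6 touched the 5′UTR and none the 3′UTR. Of the 15 regions, 2 had a peak in all 6 samples, 12 in at least 2 and 3 in a single sample. A peak was present in all 3 Fs samples in 8 regions and in all 3 Fts samples in 3. UNC13A was chosen for its Fs peaks, so these 2 numbers are not independent of that choice. Exons with a peak had a median length of 153 nt, and those without had 89.5 nt. The median GC content was 54.1% and 51.7%.

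**Figure D2:**
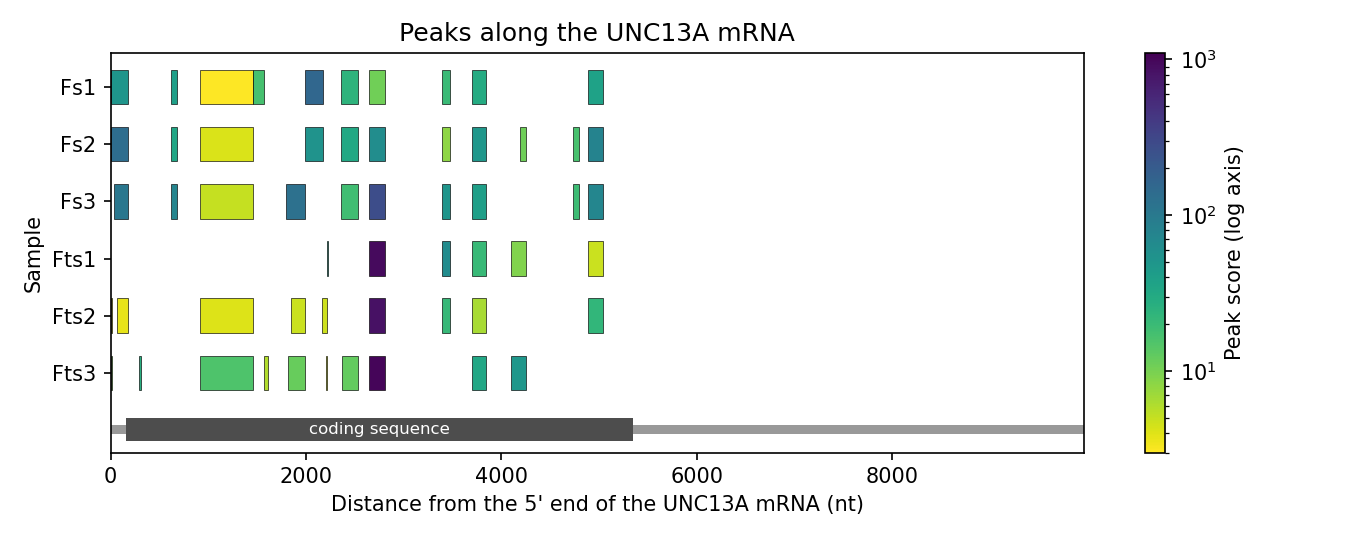
Peaks along the UNC13A mRNA (x axis, nt from its 5′ end) in the 6 samples (y axis), coloured by peak score on a log scale, with the coding sequence as the thick dark bar. The peaks end before the 3′UTR in every sample, and the darkest Fts peaks all stand on exon 21.

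Exon 21 had the highest score of all UNC13A peaks in each Fts sample and in Fs3, but not in Fs1 and Fs2, where exons 17 and 1 scored highest. It is 164 nt long, bases 2497 to 2660 of the coding sequence, and it belongs to all 13 annotated mRNAs. Its scores were 10.9, 62.8 and 279 in Fs1 to Fs3, and 942, 834 and 1008 in Fts1 to Fts3. Every Fts sample was above every Fs sample, and the Fs samples were far apart from each other. Scores averaged 118 ± 142 (SD, n = 3) for Fs and 928 ± 87.9 for Fts, with a mean log2 difference over the pairs of equal number of 4.01. Without the samples numbered 3 the Fs mean was 36.9 and the Fts mean 888. Of the 864 regions with a peak in all 6 samples, 13.0% had a higher score in every Fts sample than in every Fs sample and 22.9% a lower one. The log2 difference was larger than that of exon 21 in 12 of the 864 regions (1.39%), and its median over them was -0.33. These values come from the lists that put UNC13A among the 9 genes and are given without a test.

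Exon 30, the other stretch of UNC13A with a peak in all 6 samples, is 144 nt long. Its scores were 29.8, 48.8 and 40.4 in Fs and 20.7, 6.44 and 32.7 in Fts. The ranges overlapped, with 39.7 ± 9.50 in Fs and 20.0 ± 13.2 in Fts and a mean log2 difference of -1.25. Of the 864 regions with a peak in all 6 samples, 27.5% had a lower log2 difference than exon 30, and the median was -0.33. The mean log2 differences of exons 21 and 30 thus had opposite signs, but the samples of exon 30 overlapped and this was not tested.

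**Figure D3:**
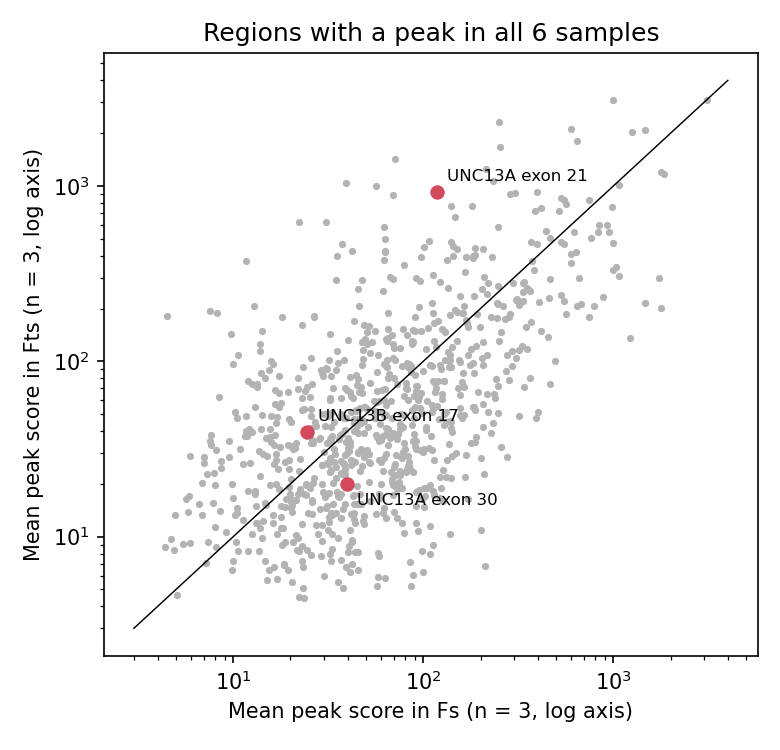
Mean peak score in Fts (y axis) against Fs (x axis), both on log scales, for the 864 regions with a peak in all 6 samples, with the line of equal scores. UNC13A exon 21 lies above the line at 118 and 928, UNC13A exon 30 below it at 39.7 and 20.0, and UNC13B exon 17 above it at 24.5 and 39.7.

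On exons 1 and 7, near the start of the UNC13A mRNA, scores in Fs were the higher ones. Exon 1 scored 51.1, 138 and 105 in Fs, had no peak in Fts1, and scored 3.99 and 10.1 in Fts2 and Fts3. The Fs peaks of exon 1 ran to its 3′ end and took in the start of the coding sequence. The Fts peaks of score 3.99 and 10.1 covered its first 12 nt and 308 nt upstream, a stretch that the Fs1 peak also held. A second Fts2 peak on exon 1, of score 3.70, took in the start of the coding sequence and ran to the 3′ end, as in Fs. Exon 7, of 55 nt, scored 40.6, 33.7 and 74.5 in Fs and had no peak in Fts. It was the only UNC13A region with a peak in 3 Fs samples and no Fts sample. Exon 10, of 540 nt, was low in every sample that had it, at 3.03, 4.23 and 5.02 in Fs and 4.11 and 15.7 in Fts2 and Fts3.

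In the middle of the mRNA, exons 16 and 17 showed peaks of different position and height. Exon 16 scored 125 in Fs3, and 4.82 and 11.7 in Fts2 and Fts3. Exon 17 scored 156 and 53.0 in Fs1 and Fs2, and 37.4, 4.73 and 4.35 in Fts1 to Fts3. The Fs peaks covered the first 187 nt of exon 17, and the Fts peaks its last 8, 56 and 14 nt, so that only the Fts2 peak shared bases with those of Fs. The Fts peaks of 8 and 14 nt, like the 9 nt peak of Fts3 on exon 3, are far shorter than the RNA fragments and are counted as deposited. Joining peaks that met at an exon junction left the UNC13A numbers of Fts at 6, 9 and 10, so these short peaks had no neighbour across a junction, and changed Fs1 from 10 to 9. Exon 19 scored 24.3, 32.2 and 18.5 in Fs and 12.4 in Fts3 alone.

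Toward the stop codon the scores were mixed. Exon 27 scored 20.2, 8.25 and 51.1 in Fs, and 63.6 and 21.1 in Fts1 and Fts2, with overlapping ranges. Exon 34 scored 11.1 in Fs2, and 9.18 and 48.9 in Fts1 and Fts3. Exon 44 scored 36.6, 77.8 and 73.7 in Fs, and 4.76 and 22.8 in Fts1 and Fts2, without overlap among the samples that had a peak. The remaining regions, on exons 3, 11, 12 and 42, had a peak in 1 or 2 samples, with scores from 5.96 to 27.0.

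**Figure D4:**
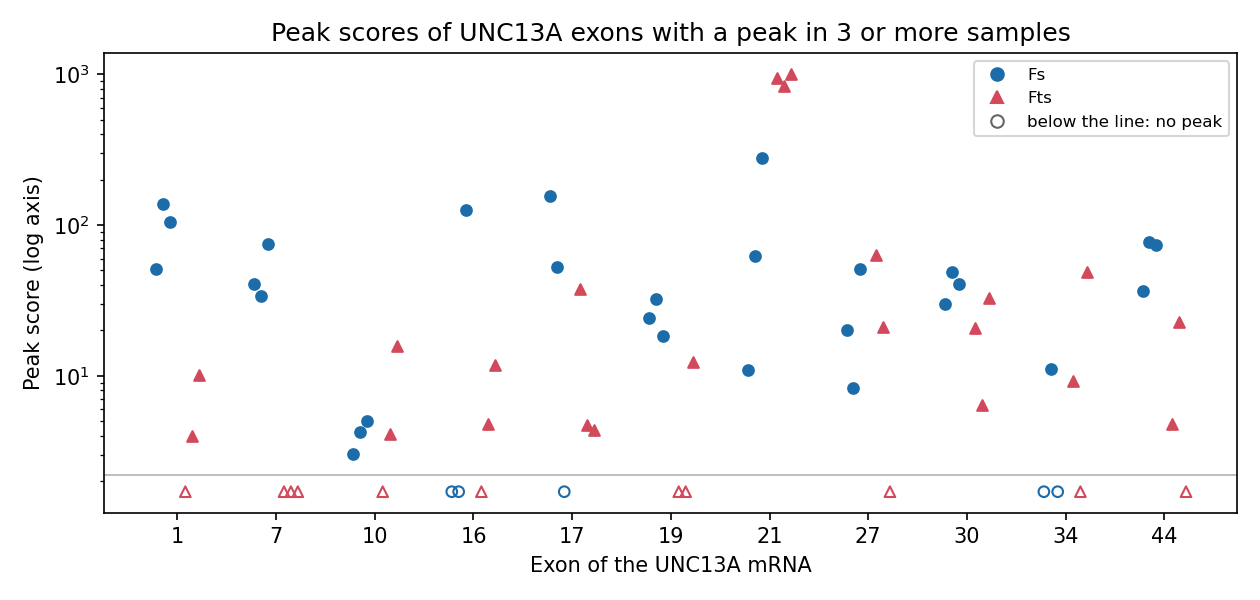
Peak score (y axis, log scale) in each Fs (circles) and Fts (triangles) sample on the 11 UNC13A exons with a peak in 3 or more samples (x axis), with open symbols below the line for samples without a peak. The Fts samples stand highest on exon 21, between 834 and 1008. On exons 1, 7, 19 and 44 every Fs sample stands above every Fts sample, with samples without a peak taken as lowest. Each of these exons lacked a peak in some Fts sample, and UNC13A was chosen for its Fs peaks.

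The UNC13A peaks were also counted by score, as a description only, because the gene was chosen for its Fs peaks. Peaks with a score of at least 20 (p of 0.01) numbered 7, 7 and 7 in Fs and 4, 3 and 4 in Fts, without overlap. Of 6293 genes with such a peak, 4.54% had fewer of them in every Fts than in every Fs sample. At a score of at least 50 there were 2, 4 and 6 in Fs and 2, 1 and 1 in Fts, and the groups met at 2. The median score of the UNC13A peaks was 27.0, 33.7 and 62.4 in Fs and 29.0, 4.82 and 14.1 in Fts. Over all peaks of a sample the median was 10.7 to 11.9 in Fs and 12.9 to 15.9 in Fts.

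RRACH was present in 30 of the 31 UNC13A peaks of Fs (96.8%) and in 20 of the 25 of Fts (80.0%), beside 82.1% and 87.3% of all peaks on mRNA exons. Peaks of 1 mRNA are not replicates, and these shares are not tested. The Fts peaks include those of 8, 9 and 14 nt, which have little room for a match, and shares matched for length were not computed. The UNC13A mRNA as a whole held 178 matches, 17.9 per kb, and its peaks held 14.9 per kb. Of the 56 UNC13A peaks, 39 (69.6%) had the exact bounds of an annotated exon, as did 46.4% of all peaks on mRNA exons.

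UNC13B, a close relative of UNC13A expressed in more tissues, had the opposite direction in the number of peaks. It had 1, 3 and 1 peaks in Fs and 2, 6 and 3 in Fts. The number was higher in Fts in 3 of 3 pairs, although the groups met at 2 to 3 peaks. Fs averaged 1.67 ± 1.15 peaks (SD, n = 3) and Fts 3.67 ± 2.08. By an exact sign-flip test, two-sided, this had p = 0.25, as low as 3 pairs can go, and an adjusted p = 1.0 over all genes with a peak. The peaks lay in 8 regions, each with the bounds of an exon. On the exons of its longest coding mRNA alone the difference was 0.333 peaks.

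The difference between these settings lay in 4 exons that the longest coding mRNA of UNC13B does not have. The gene lies at chr1:235918751-236158098 on the plus strand, with 15 annotated mRNAs. An exon of 315 nt at chr1:236058793-236059107 is part of 7 of the 15 mRNAs, is coding in all 7, and is exon 9 of 40 in XM_021065586.1. It had no peak in Fs, and scored 64.9, 178 and 137 in Fts1 to Fts3 (127 ± 57.4). Fts and Fs were thus separated by presence. Of the 26095 regions on mRNA exons, 6.82% had a peak in 3 Fts samples and no Fs sample, and this exon was the only such region among the 37 regions of the 9 genes (2.70%). The other 3 of these exons had a peak in 1 or 2 samples. Which of the 15 mRNAs was present was not tested.

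Exon 17 of UNC13B, 128 nt long and present in all 15 mRNAs, had a peak in every sample. Its scores were 34.7, 12.6 and 26.1 in Fs and 50.6, 32.5 and 36.0 in Fts. The score was higher in Fts in 3 of 3 pairs, and the ranges overlapped between 32.5 and 34.7. The mean was 24.5 ± 11.1 in Fs and 39.7 ± 9.63 in Fts, a mean log2 difference of 0.79. Of the 864 regions with a peak in all samples, 25.6% had a larger log2 difference.

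UNC13A and UNC13B share an exon structure over much of their coding sequence, which allowed peaks on corresponding exons to be set side by side. UNC13B exon 12 aligned with UNC13A exon 21 over 163 bases at 77.3% identity, and it had a single peak, of score 4.04 in Fts3. UNC13B exon 21, which aligned with UNC13A exon 30 at 81.9% identity, had no peak in any sample. In the other direction, UNC13A exon 26 aligned with UNC13B exon 17 at 82.9% identity and had no peak in any sample. The exons with a peak in all 6 samples therefore did not correspond between the genes. No region with a peak in at least 3 samples had a second stretch in the genome with at least 90% identity over more than 50% of its length, and no region overlapped an mRNA exon of another gene.

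UNC13D, which serves granule release in immune cells, had a single region, on exon 27 of 34 at chr12:5585586-5585691, plus strand. It had 1 peak in each Fs sample, with scores of 8.50, 15.2 and 44.8, and none in Fts. The difference of -1.0 peak held in 3 of 3 pairs (exact sign-flip test, p = 0.25, adjusted p = 1.0, and exact permutation of 3 against 3, p = 0.10, adjusted p = 0.697). Neither test can give a lower unadjusted p with this number of samples. At a score of at least 20, only the peak of Fs3 was left.

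RIMS1, a scaffold of the active zone that binds UNC13 proteins, had 3, 3 and 4 peaks in Fs and 2, 0 and 2 in Fts. The groups did not overlap. Fs averaged 3.33 ± 0.577 peaks (SD, n = 3) and Fts 1.33 ± 1.15, which is -2.0 for Fts minus Fs (exact sign-flip test, p = 0.25, adjusted p = 1.0, and exact permutation test, p = 0.10, adjusted p = 0.697). Its peaks were weak. Of 14 peaks in 8 regions, 11 scored under 13.0 and 1 reached 20, an Fts1 peak of 20.9 on exon 7, so that the difference turned to 0.333 at a score of at least 20.

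The gene lies at chr1:51785140-52246456 on the plus strand and has 50 annotated mRNAs, and its regions were spread over 8 exons. Exon 29, the region with a peak in the most samples, scored 4.52, 17.9 and 7.30 in Fs and 9.88 in Fts1 alone. Exon 34, which holds the stop codon, scored 3.54, 5.48 and 4.64 in Fs and had no peak in Fts. With UNC13A exon 7 and UNC13D exon 27, it was 1 of 3 regions among the 37 (8.11%) with a peak in 3 Fs samples and no Fts sample, beside 3.63% of all 26095 regions. The choice of UNC13A used the Fs peak numbers, so the 8.11% is not an independent count.

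The SNARE genes carried few peaks. STX1A, the plasma membrane syntaxin of neurons, had none in any sample. STX2, a syntaxin of wider expression, had 1 in Fs2 (score 4.78, exon 9), and SNAP25, its partner on the plasma membrane, had 1 in Fts2 (7.61, in the 5′UTR). A peak in 1 of 6 samples with such a score is near the limit of the lists, and the absence of a peak does not show that the mRNA is unmethylated or missing.

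VAMP2, the SNARE of the vesicle membrane, was the exception. It lies at chr12:53378407-53382243 on the minus strand, and had 1, 1 and 2 peaks in Fs and 1, 0 and 1 in Fts. The groups met at 1 peak (1.33 ± 0.577 and 0.667 ± 0.577, exact sign-flip test, p = 0.50, adjusted p = 1.0). Its main region spanned the stop codon, on the last of 5 exons, with up to 17 nt of coding sequence and 658 nt of 3′UTR, and its peaks reached 199 to 327 nt into the intron before that exon. There the scores were 18.2, 40.5 and 7.58 in Fs and 3.49 and 3.20 in Fts1 and Fts3. Each Fs score was above each Fts score, but 4 of the 6 VAMP2 peaks scored under 13.0. Unlike UNC13A, with no peak in its 3′UTR, VAMP2 had all 6 of its peaks touch the 3′UTR.

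NSF, the ATPase that recycles SNARE complexes, had 1 peak, in Fts3, with a score of 7.44 on exon 1, over 127 nt of 5′UTR and the first 12 nt of coding sequence.

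Together the 9 genes had 16, 20 and 18 peaks in Fs and 11, 16 and 17 in Fts (18.0 ± 2.00 and 14.7 ± 3.21, SD, n = 3). UNC13A made up 57.4% of the Fs sum and 56.8% of the Fts sum, so the sum is largely a second reading of UNC13A. As a share of all peaks of a sample, the 9 genes held 0.200%, 0.193% and 0.174% in Fs and 0.114%, 0.139% and 0.142% in Fts. Peak numbers were lower in every Fts than in every Fs sample for 2 of the 9 genes, UNC13D and RIMS1, and higher for none. Over the 11701 genes with a peak, 5.36% were lower and 8.98% higher in this sense. Which of the 9 genes separated depended on the score. At 20 or more they were UNC13A (lower), which had been chosen for its Fs peaks, and UNC13B (higher), beside 4.54% lower and 11.3% higher of 6293 genes with such a peak. At 50 or more it was UNC13B (higher) alone, beside 4.66% lower and 12.3% higher of 3801 genes. Of the 98 peaks, 45 (45.9%) scored under 13.0, beside 50.8% of all peaks on mRNA exons.

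Of 75 other genes of the exocytosis machinery, 55 had at least 1 peak, and these genes had more peaks in Fts than in Fs in sum, 39, 55 and 56 in Fs against 62, 76 and 83 in Fts. All genes together had 24361 peaks on mRNA exons in Fs and 29532 in Fts. Of the 55, 7 were higher in every Fts than in every Fs sample and 5 were lower, to be read beside the 8.98% and 5.36% of all genes. Most of the difference in the sum lay in the priming and active zone group of 19 genes, with 18, 22 and 22 peaks in Fs and 33, 44 and 46 in Fts. In that group 17 genes had a peak, of which 5 were higher and 1 was lower, beside the same 8.98% and 5.36% of all genes. ERC1, an active zone scaffold, had 1, 1 and 2 peaks in Fs and 6, 13 and 12 in Fts, and its paralogue ERC2 had 2, 2 and 1 against 5, 4 and 8. The scaffold gene PPFIA1 had 0, 0 and 1 against 3, 6 and 4. RPH3A, a Rab3 effector, had 1, 1 and 1 against 3, 3 and 5, and CADPS2, another priming factor, had none against 4, 2 and 1. RIMBP2, which links RIM proteins to calcium channels, went the other way with 2, 2 and 2 against 0, 1 and 0. The higher sum of the 19 genes came from ERC1, ERC2, PPFIA1, RPH3A and CADPS2, and was not shared by the whole group. Of the rest, some had slightly higher mean peak numbers in Fts, and others, RIMBP2 among them, had lower ones. UNC13A and RIMS1, which also had lower means in Fts, were not among the 19 and thus did not run against a rise of the whole group.

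In the other groups few genes separated. STXBP4, which binds syntaxin, had no peak in Fs and 5, 5 and 4 in Fts. CPLX2, a complexin that clamps SNARE bundles, had 1, 2 and 2 in Fs and none in Fts. OTOF, the calcium sensor of hair cells, had 1, 1 and 2 in Fs and none in Fts, and EXOC4, a subunit of the exocyst, had 3, 3 and 4 against 2, 2 and 2. The 19 calcium sensor genes had 8, 13 and 12 peaks in Fs and 5, 7 and 7 in Fts in sum. Of the 10 with a peak, 1 was lower and none was higher, beside 5.36% and 8.98% of all genes. The 14 SNARE genes had 4, 5 and 6 against 8, 7 and 10, and the 9 exocyst genes 5, 5 and 9 against 7, 8 and 9.

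**Figure D5:**
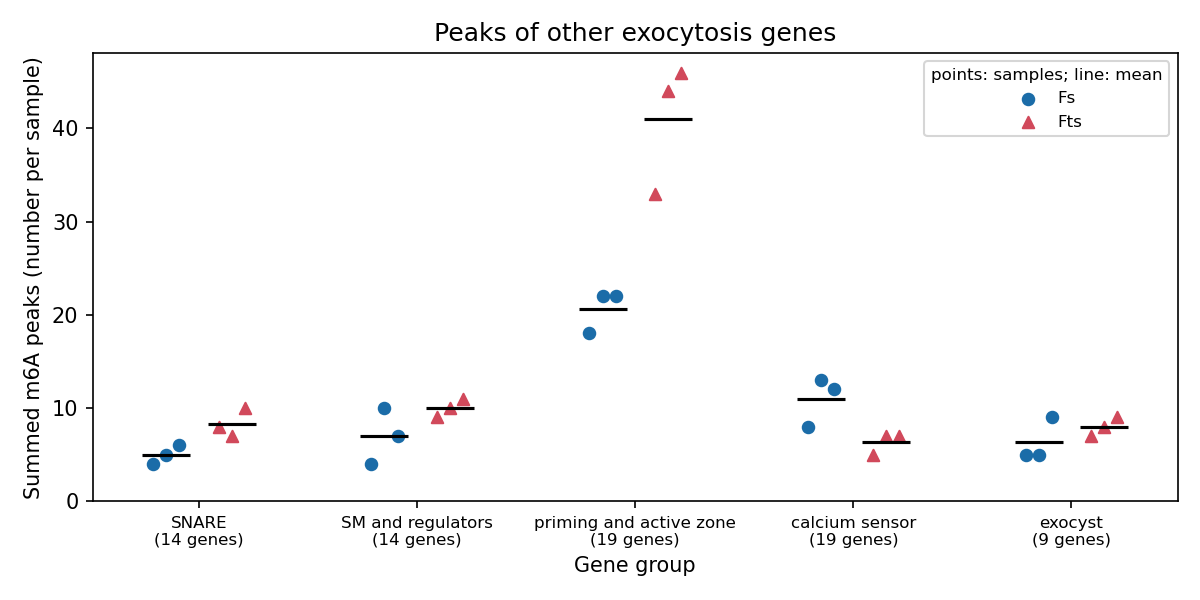
Summed number of m6A peaks per sample (y axis) in 5 groups of other exocytosis genes (x axis) for Fs (circles) and Fts (triangles), with the mean of 3 samples as a line. The priming and active zone genes stand at 18 to 22 in Fs and 33 to 46 in Fts, and the calcium sensor genes at 8 to 13 and 5 to 7.

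Markers of cell types were read in the same way, by their peaks. Of 16 genes of spermatids and sperm, 9 had a peak in at least 1 sample, with sums of 5 to 6 in Fs and 5 to 7 in Fts. PRM1, TNP1, ODF1, AKAP4, SMCP, TSSK6 and GAPDHS had none in any sample. ACR, the acrosomal protease, had 2 in each Fs sample and none in Fts, SPATA18 had none in Fs and 1 in each Fts sample, and SPACA1 had 1 in every sample. AKAP3 had 2, 1 and 3 in Fs and 0, 0 and 1 in Fts, and ODF2 had none in Fs and 3, 3 and 0 in Fts. PRM2, TNP2, CATSPER1 and LDHC had a peak in 1 or 2 samples. The level sums thus hold genes that differed in opposite directions. Because a peak needs methylation as well as expression, the label could not be checked beyond this. The 5 leukocyte markers had 0 to 2 peaks in Fs and 1 to 2 in Fts. The 5 epithelial markers had 1 to 2 in Fs and 6 to 7 in Fts, with KRT8 at 0, 0 and 0 against 3, 4 and 2 and EPCAM at 0 in all samples. KRT18 and KRT19 were also higher in Fts on average, and CDH1 was lower (0, 1 and 1 against 0, 0 and 1). Neuronal markers, of which 5 of 6 were annotated, had 3 to 6 in Fs and 3 to 4 in Fts, with SYN1 and RBFOX3 at 0, GAP43 present in all 6 samples, and SYP (2, 2 and 3 against 0, 1 and 2) and MAP2 (0, 2 and 1 against 2, 1 and 1) present in 5. The part of other cells in the peaks of the exocytosis genes was not tested.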

How the data were processed

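MeRIP-seq was performed on 6 sperm samples, 3 Fs and 3 Fts, each with an IP and an input library read at 150 bp. The authors trimmed reads with cutadapt 1.9.3, aligned them with HISAT2 to susScr11 (Sscrofa11.1), called peaks with MACS in each sample against its own input and kept the peaks on mRNAs. The MACS version is not given in the sources used here. The deposited score of each peak is 10 times -log10 p, as the authors' peak caller gave it, and was used to describe and filter peaks, not as a methylation level. A further list, the authors' comparison of Fts with Fs (a score per differential site, without direction), was not used. Reads were not analysed here.

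Peaks were placed on RefSeq Annotation Release 106 of Sscrofa11.1, whose 20 chromosome names matched and in which no peak ran past a chromosome end. Peaks of the 6 samples that overlapped by at least 1 bp were merged into regions, and where a sample had more than 1 peak in a region the highest score was taken. Exons were numbered on the longest coding mRNA unless another is named. Peak numbers of the members other than UNC13A and STX1A were compared by two-sided exact sign-flip tests over pairs of equal sample number, or by exact permutation of 3 against 3, adjusted by Benjamini-Hochberg over 11701 genes. The 3 pairs cannot give a p under 0.25, and 3 against 3 samples cannot give one under 0.1. The labels do not say that equal numbers mark the same boar, or which ejaculates a sample holds, so p-values measure the spread between these samples only.

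The members and lists were chosen with earlier results of these data known. Named were all members, UNC13A regions with a peak in at least 3 samples, the region with a peak in most samples of each other member, the 5 genes nearest to UNC13A, and at most 6 exocytosis genes in each direction. The values of 1 of these exocytosis genes are not reported here. Alternatives were a minimum score of 20 or 50, peaks joined at exon junctions, at least 50% of a peak on exons, the longest coding mRNA alone, scaling by peaks per sample, GGACH, a window of 100 bases around the midpoint for the motif, and omission of each sample number in turn. The last was added after seeing the data for UNC13A regions and exon 21. Code was tested on simulated data with 200 planted genes. Python 3.11.15, numpy 2.4.6, pandas 2.3.3 and scipy 1.17.1 were used.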

Additional observations from a re-analysis of the deposited data

How the results depend on the processing

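The mean difference in UNC13A peaks, Fts minus Fs, was -2.0 and kept its sign in every alternative run. It was -3.57 after scaling to the mean number of peaks per sample, and -3.0 to -1.0 when each sample number was left out in turn. The sum over the 9 genes differed by -3.33, and by -2.0 at a score of at least 20, -1.0 at 50 (where the groups overlapped), -5.0 on the longest coding mRNA alone, -5.92 after scaling and -4.50 to -2.50 with 1 sample number left out. The number of members whose groups did not overlap was 2 (UNC13D and RIMS1, lower), beside 5.36% lower and 8.98% higher of all genes. At 20 or more it was again 2, but these were UNC13A (lower) and UNC13B (higher), beside 4.54% lower and 11.3% higher. At a score of at least 50 it was 1 (UNC13B, higher), beside 4.66% lower and 12.3% higher of genes with such a peak. With at least 50% of a peak on exons it was 1 (UNC13D, lower). With 1 sample number left out it was 2 to 3. The share over all genes was not computed for these last settings, and 2 samples per group separate more easily than 3. UNC13A regions with a peak in 2 or more samples numbered 12, 5 at a score of at least 50, and 10 to 12 with 1 sample number left out. The share of member peaks with RRACH, 87.8%, was 51.0% for GGACH and 73.5% in the 100 bases around the midpoint. RIMS1 reversed to 0.333 peaks at a score of at least 20, where a single peak remained. Of the other values for single genes, 60 kept their direction and 12 became 0, most of them where a score minimum removed all peaks of the gene. The replicate block over equal sample numbers was checked by the correlation of deviations from the group means, which was 0.0102, -0.0142 and 0.0128 for the 3 pairs. This gave no sign of pairing and does not show that equal numbers are different boars. Without the replicate block the difference for UNC13B was 2.0 peaks (exact permutation test, p = 0.30) and none of the members tested passed the threshold in either form. The lists carry no read depth, and 3 samples per group cannot reach the threshold in either exact test.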
